A study of Mus musculus with 27 samples.

Results

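The comparison described here is the effect of interferon gamma (IFN-gamma) on mouse glia that also received lipopolysaccharide (LPS) and bryostatin-1. It covers 6 of the 27 libraries of the series, chosen by their labels: 3 of glia given LPS, IFN-gamma and bryostatin together, called IFN-gamma glia below, and 3 of glia given LPS and bryostatin, called LPS-bryostatin glia. Both groups were primary mixed glia from the cortex of C57BL/6 pups 3 to 6 days old, cultured for 14 days and then treated for 24 h, in experiment 1 of the series. Both received 100 ng/mL LPS, a bacterial cell wall product sensed by Toll-like receptor 4, and 50 nM bryostatin-1, a natural macrolide that occupies the diacylglycerol site of protein kinase C. IFN-gamma, at 20 ng/mL, is what the groups differ in. A pair without bryostatin, 3 libraries of LPS + IFN-gamma glia and 3 of LPS glia from the same experiment, entered the same fit and served to test where the IFN-gamma effect depended on bryostatin. No group of experiment 1 had IFN-gamma without LPS, so every effect here is one on top of LPS. The labels do not say whether the replicates were separate cultures or animals, so the spread behind each p-value is that between these libraries and may be only technical. Mixed glia are bulk samples, in which fewer cells of a type and less RNA per cell cannot be told apart.

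IFN-gamma is the cytokine by which T cells and natural killer cells switch macrophages, including microglia, the macrophages of the brain, to an antimicrobial and antigen-presenting state. It binds a receptor made of IFNGR1 and IFNGR2, which activates the kinases JAK1 and JAK2. Their signal acts through GAS elements in the promoters of a first set of genes, among them Irf1 and Ciita. Products of Irf1 and Ciita then drive further genes. IFN-gamma also induces Socs1, whose product inhibits the JAK kinases. Astrocytes carry the receptor too and can be induced to make chemokines and MHC molecules.

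Promoters of 6 genes chosen by hand are shown first, as DNA searched for motifs of this pathway, with no binding measured. Each runs from 250 bases before to 50 bases after the gene's annotated start (RefSeq, build GRCm38.p6, the mm10 assembly on which the reads were counted), 5′ to 3′ on the gene's own strand. Capitals mark matches to the GAS-type motif TTCNNNGAA or to the ISRE-type motif, GAAA followed by any 2 bases and GAAA, the kind read by interferon regulatory factors, searched on both strands. Irf1, encoding the transcription factor that carries the IFN-gamma signal onward, is on the plus strand with its window at chr11:53769764-53770063. Its GAS-type match starts 90 bases before the start. Another annotated Irf1 window, chr11:53770223-53770522, holds neither motif and is not printed. Socs1, the feedback inhibitor, is on the minus strand at chr16:10785487-10785786, with overlapping ISRE-type matches that start 83 and 77 bases before. Gbp5, a guanylate-binding protein gene on the plus strand at chr3:142496684-142496983, holds GAS-type matches 245 and 52 bases before its start and an ISRE-type match, read on the other strand, 165 bases before. Igtp, an immunity-related GTPase gene on the plus strand at chr11:58199306-58199605, has a GAS-type match 45 and an ISRE-type match 34 bases before its start. Calhm6, of the calcium homeostasis modulator family, lies on the minus strand at chr10:34127923-34128222, with an ISRE-type match 64 bases before. H2-Aa, an MHC class II chain gene on the minus strand at chr17:34287774-34288073, is shown for contrast, as it rose steeply and holds neither motif in this window.
Irf1: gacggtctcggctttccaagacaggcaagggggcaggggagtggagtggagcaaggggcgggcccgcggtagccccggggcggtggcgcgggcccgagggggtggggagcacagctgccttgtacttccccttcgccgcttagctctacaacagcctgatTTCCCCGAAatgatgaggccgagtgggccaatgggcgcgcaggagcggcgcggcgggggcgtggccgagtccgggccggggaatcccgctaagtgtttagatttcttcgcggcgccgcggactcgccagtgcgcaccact
Socs1: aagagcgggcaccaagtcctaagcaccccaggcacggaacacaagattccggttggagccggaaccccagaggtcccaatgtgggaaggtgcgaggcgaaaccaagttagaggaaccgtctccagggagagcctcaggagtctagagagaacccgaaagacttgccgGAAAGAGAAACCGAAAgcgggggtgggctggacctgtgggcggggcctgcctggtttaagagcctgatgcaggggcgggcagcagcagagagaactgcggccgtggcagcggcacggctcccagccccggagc
Gbp5: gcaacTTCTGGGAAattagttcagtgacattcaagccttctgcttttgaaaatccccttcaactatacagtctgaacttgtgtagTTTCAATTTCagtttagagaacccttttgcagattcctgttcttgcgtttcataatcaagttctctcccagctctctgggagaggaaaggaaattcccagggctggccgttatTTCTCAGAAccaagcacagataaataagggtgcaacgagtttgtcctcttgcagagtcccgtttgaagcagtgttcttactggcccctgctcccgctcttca
Igtp: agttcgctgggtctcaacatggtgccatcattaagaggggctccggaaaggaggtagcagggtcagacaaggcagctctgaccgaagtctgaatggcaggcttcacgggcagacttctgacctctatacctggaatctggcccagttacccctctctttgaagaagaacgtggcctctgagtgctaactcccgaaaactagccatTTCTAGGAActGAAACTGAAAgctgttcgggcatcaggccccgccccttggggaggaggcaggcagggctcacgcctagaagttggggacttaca
Calhm6: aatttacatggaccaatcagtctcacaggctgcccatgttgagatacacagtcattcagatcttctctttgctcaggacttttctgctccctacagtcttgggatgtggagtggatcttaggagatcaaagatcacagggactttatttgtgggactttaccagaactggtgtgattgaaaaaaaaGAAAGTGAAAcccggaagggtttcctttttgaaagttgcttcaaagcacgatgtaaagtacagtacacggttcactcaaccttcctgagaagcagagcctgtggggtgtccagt
H2-Aa: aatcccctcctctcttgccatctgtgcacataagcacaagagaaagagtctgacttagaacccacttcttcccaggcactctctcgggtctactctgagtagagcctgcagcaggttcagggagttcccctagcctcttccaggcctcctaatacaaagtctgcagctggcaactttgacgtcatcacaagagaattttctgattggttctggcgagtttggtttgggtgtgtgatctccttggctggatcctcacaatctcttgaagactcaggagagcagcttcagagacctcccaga

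Across the 11587 tested symbols with a RefSeq promoter, of 15690 tested symbols, the GAS-type motif was found in 8.26% and the ISRE-type motif in 3.96%. Among genes called higher the shares were 8.97% and 5.92%, and among genes called lower 7.96% and 3.76%. The shares were largest where the rise was steepest. Of the 34 genes called higher by more than 4 on the log2 scale, 20.6% held the GAS-type motif, 20.6% the ISRE-type motif and 38.2% at least 1 of them. Of the 40 genes called higher by 3 to 4, 17.5% held each. Among gene families, all 5 guanylate-binding protein genes with a promoter in the table held the ISRE-type motif, and 7 of 9 immunity-related GTPase genes did. So did 14 of 25 type I interferon-stimulated antiviral genes, whose median rise was 0.42. In the MHC class II list 1 of 12 promoters held each motif. High shares were not confined to lists that rose. The GAS-type motif was in 5 of 13 promoters of the Toll-like and Fc receptor list, whose median change was 0.14. It was in 5 of 21 (23.8%) of the astrocyte identity list, whose median was -0.56. A match is a stretch of letters, not a measured binding site, and these shares were not tested.

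**Figure D1:**
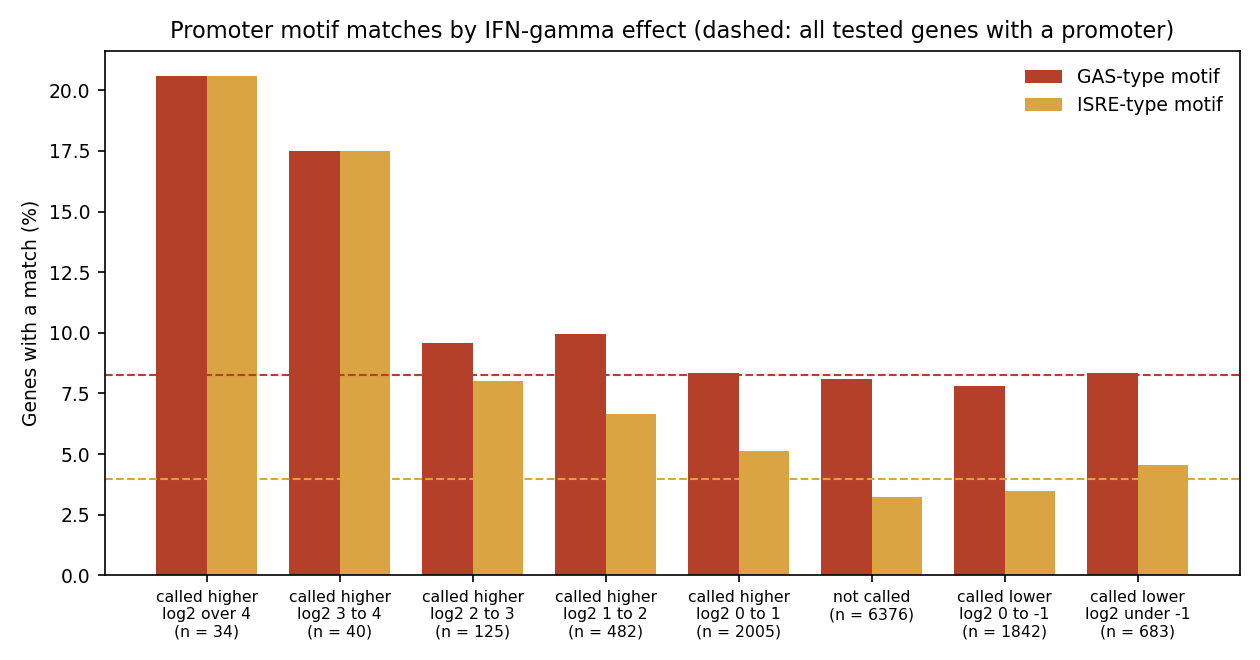
Share of genes whose promoter window holds a GAS-type or an ISRE-type motif (y axis, percent), grouped by call and size of the IFN-gamma effect (x axis, log2 fold change, with the number of genes). Both shares stand at 20.6% for rises above 4 and at 17.5% for rises of 3 to 4, against 8.26% and 3.96% over all tested genes with a promoter (dashed lines).

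The 12 fitted libraries held 17230058 to 20002626 counts each, so that 3 counts equal 0.15 to 0.174 CPM, counts per 1e6 counts of a library. Across genes, the Pearson correlation of log2 CPM was 0.9927 to 0.995 among IFN-gamma glia, 0.9948 to 0.996 among LPS-bryostatin glia and 0.96 to 0.9655 between them. The 20 most abundant genes took 9 to 10.2% of the counts in IFN-gamma glia and 7.17 to 7.45% in LPS-bryostatin glia. The scaling factors for library composition (TMM) were 0.8901 to 0.9316 in IFN-gamma glia and 1.072 to 1.095 in LPS-bryostatin glia. Levels below are CPM scaled with these factors, per library, and effects are log2 fold changes of IFN-gamma glia over LPS-bryostatin glia ± SE from edgeR's quasi-likelihood F test, with Benjamini-Hochberg adjusted p-values across the genes tested and a gene called at an adjusted p under 0.05. Markers placed the cultures as labelled, with summed levels of 10 astrocyte markers of 4890 to 4910 CPM in IFN-gamma glia and 7260 to 7540 CPM in LPS-bryostatin glia, and of 12 microglia and macrophage markers of 909 to 1150 CPM in IFN-gamma glia and 1160 to 1290 CPM in LPS-bryostatin glia. The 5 lymphocyte markers summed to at most 0.121 CPM in IFN-gamma glia and 0.157 CPM in LPS-bryostatin glia, with Ifng itself, Cd3e and Cd8a at 0 counts in all 6 libraries.

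IFN-gamma changed a large part of the measured transcriptome even in glia already under LPS and bryostatin. Of 15693 genes tested, 3555 (22.7%) were called higher and 3364 (21.4%) lower, 44.1% in all. These shares are the background for the list counts below. Over 2-fold, 990 (6.31%) were higher and 983 (6.26%) lower. The steepest changes were mostly rises, with 58 genes (0.37%) called higher by over 16-fold and 19 (0.121%) called lower by as much. The median log2 fold change of all genes was -0.007. Without the composition factors, on library totals alone, that median was -0.25 and 24% of 8705 calls were higher, against 51.4% of 6919 calls with the factors, so directions of changes smaller than that shift depend on the scaling.

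**Figure D2:**
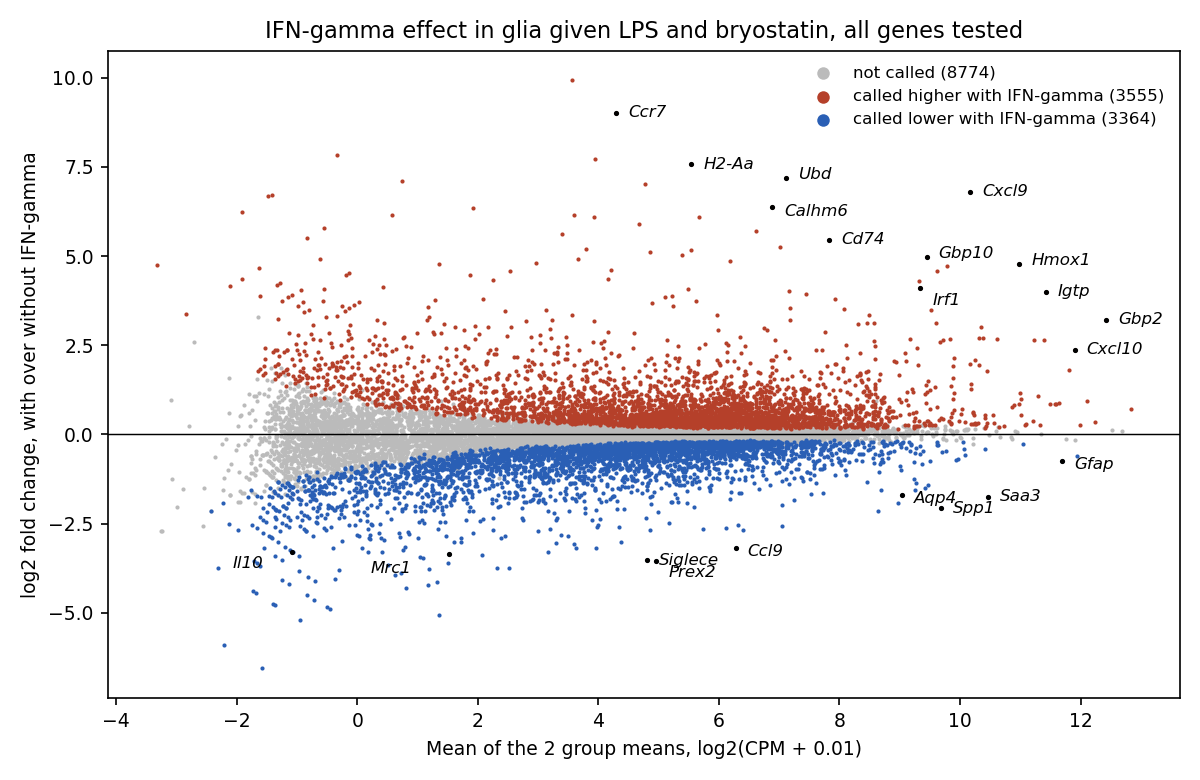
Log2 fold change of IFN-gamma glia over LPS-bryostatin glia (y axis) against the mean of the group means in log2(CPM + 0.01) (x axis), 1 point per gene, with 3555 genes called higher in red, 3364 called lower in blue and the rest grey. Rises reach further than falls, and the labelled genes at the top right (Cxcl9, Hmox1, Gbp10, Igtp, Gbp2) are high in both level and change, while fitted values of genes with 3 or fewer counts in a group depend on the fit's prior count.

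The receptor genes changed little and the feedback gene Socs1 strongly. Ifngr1, the ligand-binding chain, stood at 61.8, 69.1 and 70.4 CPM in IFN-gamma glia against 75.1, 80.1 and 78.4 CPM in LPS-bryostatin glia, a fall of small size (log2 fold change -0.21 ± 0.07, adjusted p = 0.02) that missed the threshold without IFN-gamma glia replicate 1 (adjusted p = 0.13) and without LPS-bryostatin glia replicate 2 or 3 (0.087 and 0.058), as well as without the filter on low counts (0.091) and with all 15 libraries of the experiment (0.052). Ifngr2, the signalling chain, rose slightly (0.23 ± 0.07, adjusted p = 0.015), a call that ended on library totals, where its value was -0.011, without IFN-gamma glia replicate 3 (adjusted p = 0.087) and without LPS-bryostatin glia replicate 1 (0.051). Socs1, the inhibitor of the JAK kinases whose promoter is printed above, had 260.5, 273 and 278 CPM in IFN-gamma glia against 16.8, 16.7 and 16.1 CPM in LPS-bryostatin glia (4.03 ± 0.10, adjusted p = 3.5e-14). The other called members included Cish, another inhibitor of cytokine signalling (1.79 ± 0.12), and, lower, Stat5a (-0.40 ± 0.10), which was not called in the fit with all 15 libraries (adjusted p = 0.16). Stat4, the transcription factor activated by interleukin 12, had 62 counts in IFN-gamma glia and 2 in LPS-bryostatin glia, a ratio of 30.8 (95% counting interval 8.18 to 260). Of the 22 genes of the receptor, JAK-STAT and SOCS list, 13 were higher, 3 lower and 6 not called, with a median of 0.33. Among all tested genes 22.7% were called higher and 21.4% lower. On library totals 9 were higher and 5 lower.

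Several transcription factor genes downstream of the receptor rose steeply. Irf1, at chr11:53770014-53778374 (mm10), had 1174, 1145 and 1351 CPM in IFN-gamma glia and 65.4, 72.3 and 76.3 CPM in LPS-bryostatin glia (4.10 ± 0.09, adjusted p = 1.5e-14). Ciita, the master transactivator of MHC class II genes, had 55.3, 62 and 51.5 CPM in IFN-gamma glia and 1.24, 2.01 and 1.57 CPM in LPS-bryostatin glia (5.12 ± 0.15, adjusted p = 1.4e-13). The lowest library with IFN-gamma lay far above the highest without it in both genes. Irf8, a factor that sets macrophage identity and responds to IFN-gamma, had 184, 183 and 206 CPM in IFN-gamma glia against 25.8, 22.2 and 25.1 CPM in LPS-bryostatin glia (2.97 ± 0.10, adjusted p = 3.6e-13), and Batf2, a partner of IRF1 in macrophages, rose by 3.87 ± 0.14. Batf, a related AP-1 factor, fell (-1.80 ± 0.27, adjusted p = 3.4e-05), and Irf9, part of the complex that answers type I interferon, fell slightly (-0.32 ± 0.07). In this list of interferon regulatory factors and transactivators, 10 of 17 tested genes were higher and 2 lower, with a median of 0.75, and on library totals 10 were higher and 5 lower.

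Guanylate-binding proteins and immunity-related GTPases, large GTPases that attack the vacuoles and membranes of intracellular microbes, rose in every tested member. All 11 tested guanylate-binding protein genes were called higher, with a median log2 fold change of 3.22, against 22.7% of all genes. Gbp2 had 9169.9, 10037 and 10423 CPM in IFN-gamma glia and 934, 1177 and 1062 CPM in LPS-bryostatin glia (3.22 ± 0.09, adjusted p = 9.6e-14). Gbp5, which in macrophages promotes inflammasome activity, had 2323, 2268 and 2350.0 CPM in IFN-gamma glia and 245, 304 and 304 CPM in LPS-bryostatin glia (3.02 ± 0.10, adjusted p = 2.7e-13). The range within the family was wide, with Gbp3 (1.15 ± 0.08), Gbp7 (1.77 ± 0.22) and Gbp9 (1.78 ± 0.19) at the low end, Gbp6 (3.11 ± 0.10) and Gbp4 (4.72 ± 0.18) between, and Gbp10 (4.99 ± 0.16), Gbp8 (5.04 ± 0.16), Gbp11 (5.25 ± 0.18) and Gbp2b (6.34 ± 0.35) at the top. Gbp2b rests on low levels, 7.67, 7.14 and 7.71 CPM in IFN-gamma glia and 0.103, 0.0501 and 0.105 CPM in LPS-bryostatin glia. These genes are near copies in clusters on chromosomes 3 and 5, so the split of reads among them is uncertain.

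All 12 tested immunity-related GTPase genes were called higher too, with a median of 2.72. Igtp, also called Irgm3, had 4914, 4859 and 5688 CPM in IFN-gamma glia and 291, 358 and 319 CPM in LPS-bryostatin glia (4.00 ± 0.11, adjusted p = 7.0e-14). Tgtp1 rose by 4.58 ± 0.14 and its near-identical neighbour Tgtp2 by 3.48 ± 0.11, values that cannot be assigned to either copy with certainty. Iigp1, the best studied effector of the family against Toxoplasma, rose by 2.71 ± 0.12, and the regulators Irgm1 and Irgm2 by 1.97 ± 0.07 and 2.64 ± 0.09. The counts of 11 and 12 genes were the same under every alternative run.

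The MHC class II pathway rose around its transactivator. H2-Aa, the alpha chain of I-A at chr17:34282744-34287827, had 86.7, 93.3 and 98 CPM in IFN-gamma glia and 0.259, 0.652 and 0.524 CPM in LPS-bryostatin glia (7.57 ± 0.20, adjusted p = 7.0e-14). Cd74, the invariant chain that occupies the peptide groove until the endosome, had 401, 452 and 480.0 CPM in IFN-gamma glia and 10.3, 11 and 8.9 CPM in LPS-bryostatin glia (5.46 ± 0.13, adjusted p = 3.5e-14). Without IFN-gamma H2-Aa was at the level of a few counts per library, and both genes were higher in each library with it. H2-Eb1 (7.03 ± 0.21) and H2-Ab1 (5.70 ± 0.14), the beta chains of I-E and I-A, rose too, and H2-Ab1 had 179, 175 and 221 CPM in IFN-gamma glia and 3.67, 4.21 and 3.14 CPM in LPS-bryostatin glia. Of the 16 tested genes 12 were higher, 1 was lower and 3 were not called, with a median of 2.97. The gene that fell was Rfxap, a subunit of the complex that binds class II promoters together with the product of Ciita (-0.40 ± 0.10, adjusted p = 0.0056).

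All 21 genes of the MHC class I list were called higher, with a smaller median of 1.29, and all 21 remained so on library totals. The steepest were the immunoproteasome subunit Psmb9, with 308, 309 and 368 CPM in IFN-gamma glia and 66.3, 61.6 and 62.1 CPM in LPS-bryostatin glia (2.37 ± 0.10, adjusted p = 7.0e-12), and the class I transactivator Nlrc5 (2.33 ± 0.12). Tapbpl, an editor of the peptides loaded on class I (2.14 ± 0.07), and Tap1, a subunit of the pump that brings peptides into the endoplasmic reticulum (2.06 ± 0.08), followed. Classical and non-classical class I heavy chain genes are close paralogs whose reads may be split between them.

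Genes better known as targets of type I interferon had a smaller median change. Of 35 tested antiviral genes 27 were called higher, none lower and 8 were not called, with a median of 0.42. The steepest were Ifit2 (2.67 ± 0.15), which binds viral RNA, Rsad2, encoding viperin (2.15 ± 0.14), Cmpk2, a mitochondrial nucleotide kinase (1.94 ± 0.10), and Parp14, an ADP-ribosyltransferase (1.67 ± 0.13). On library totals 17 were higher and 2 lower, and in the fit with all 15 libraries of the experiment 17 were higher, so the smaller rises of this list depended on the scaling and on which libraries were fitted.

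Chemokine genes went both ways. The 3 ligands of CXCR3, the receptor of activated T cells and natural killer cells, all rose. Cxcl9 had 2283, 2056 and 2480.2 CPM in IFN-gamma glia and 15.4, 25.7 and 19.7 CPM in LPS-bryostatin glia (6.81 ± 0.18, adjusted p = 1.2e-12). Cxcl10, already abundant under LPS, had 6217, 5827 and 7166 CPM in IFN-gamma glia and 1029.5, 1476 and 1206 CPM in LPS-bryostatin glia (2.37 ± 0.12, adjusted p = 1.6e-10), and Cxcl11 rose by 3.11 ± 0.16. Of 24 other chemokine and chemokine receptor genes 12 rose and 9 fell, with a median of 0.41. Among all tested genes 22.7% were called higher and 21.4% lower. Ccr7, the receptor that guides cells to lymph nodes, had 33.2, 36.1 and 48.5 CPM in IFN-gamma glia and 0, 0.201 and 0 CPM in LPS-bryostatin glia, where it rests on 4 counts (9.02 ± 0.38, adjusted p = 3.5e-11). Ccl22, a ligand of CCR4, had 44.4, 50.8 and 54.7 CPM in IFN-gamma glia and 0.879, 0.953 and 0.628 CPM in LPS-bryostatin glia (5.91 ± 0.20, adjusted p = 9.5e-13). The monocyte chemokines Ccl8 (3.17 ± 0.15) and Ccl7 (2.70 ± 0.11) rose. Ccl9, a ligand of CCR1, had 14.4, 13.8 and 18 CPM in IFN-gamma glia and 139, 150.3 and 129.8 CPM in LPS-bryostatin glia (-3.18 ± 0.20, adjusted p = 4.0e-08). Ccl3 and Ccl4, the macrophage inflammatory proteins, fell too, Ccl3 with 19.9, 22.8 and 27.5 CPM in IFN-gamma glia and 127, 135 and 144 CPM in LPS-bryostatin glia (-2.53 ± 0.11, adjusted p = 2.5e-11), and Ccl4 (-1.41 ± 0.11) and Ccl6 (-1.57 ± 0.25) by less.

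**Figure D3:**
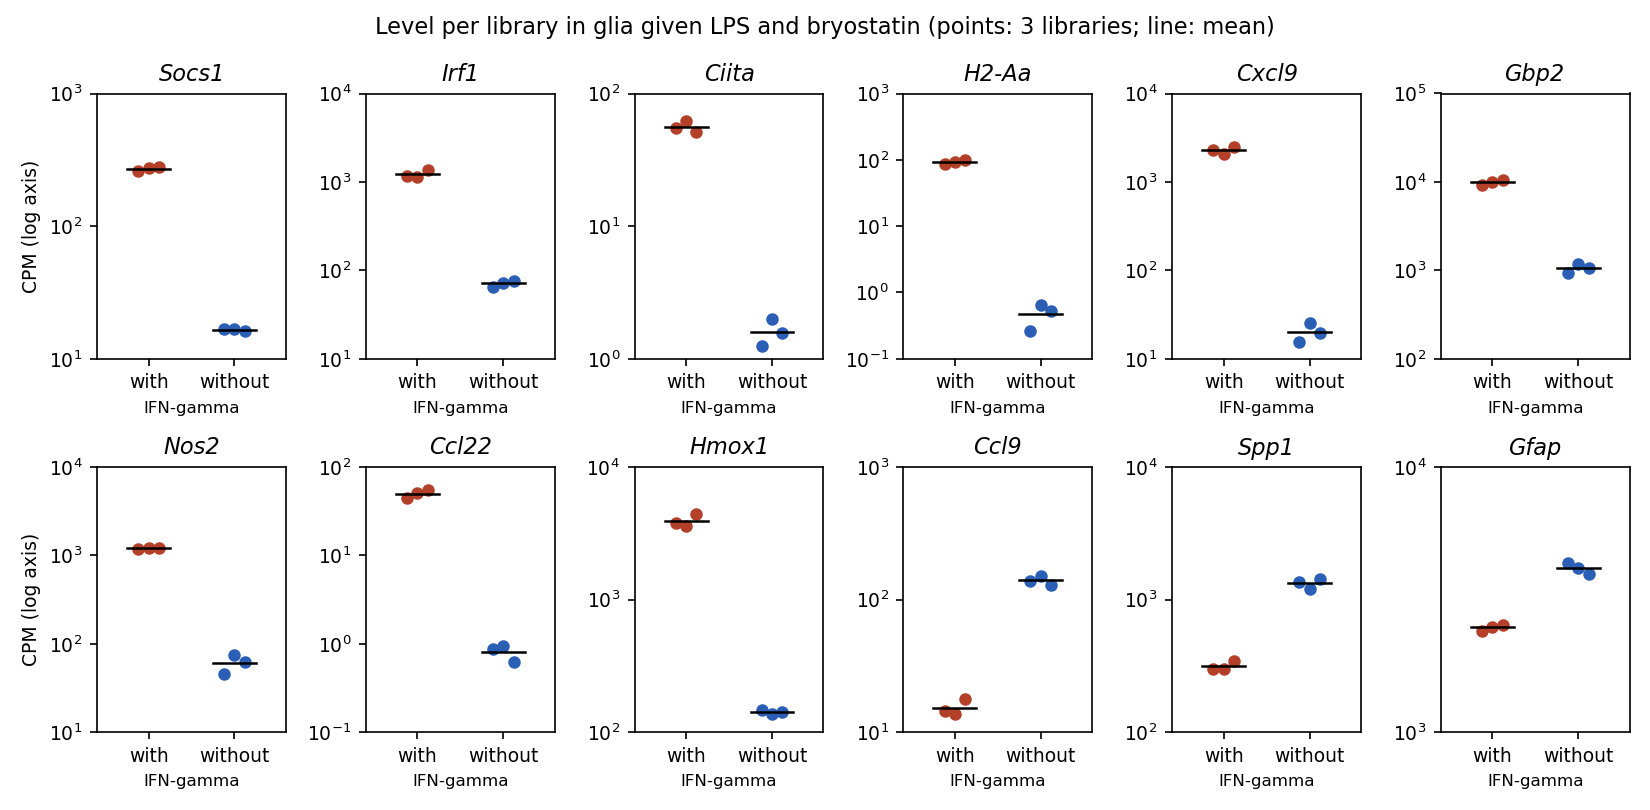
Level of 12 genes in each library (y axis, CPM scaled with TMM factors, log axis), with IFN-gamma glia in red at the left and LPS-bryostatin glia in blue at the right, 3 libraries each and a line at the mean. In every panel the groups do not overlap, and Ccl9, Spp1 and Gfap are the 3 that were lower with IFN-gamma.

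Among cytokine genes, Il12b rose the furthest. Il12b, encoding the p40 subunit shared by interleukins 12 and 23, had 25.8, 24.5 and 31 CPM in IFN-gamma glia and 0.621, 1.1 and 0.471 CPM in LPS-bryostatin glia (5.19 ± 0.32, adjusted p = 9.8e-09). Il12rb1, a chain of the receptor for it, had 24.2, 25.9 and 21.3 CPM in IFN-gamma glia and 0.31, 0.451 and 0.209 CPM in LPS-bryostatin glia (6.16 ± 0.21, adjusted p = 7.6e-13). Il27, which encodes a subunit of interleukin 27, had 6.34, 4.19 and 7 CPM in IFN-gamma glia and 1.19, 1.1 and 0.838 CPM in LPS-bryostatin glia (2.47 ± 0.24, adjusted p = 3.0e-07). The death ligand gene Tnfsf10 (2.55 ± 0.19) and Lif, a cytokine of the interleukin 6 family (2.52 ± 0.11), rose too. The classical LPS cytokines moved further up, Il6 by 1.43 ± 0.15, Il1b by 0.79 ± 0.11 and Tnf by 0.53 ± 0.13, and the call for Tnf did not hold on library totals (adjusted p = 0.065). Il10, the main anti-inflammatory cytokine of macrophages, had 0, 0.227 and 0 CPM in IFN-gamma glia and 1.34, 0.852 and 0.366 CPM in LPS-bryostatin glia, which is 4 counts against 50 (-3.31 ± 0.81, adjusted p = 0.0033). Csf3, the granulocyte growth factor (-1.58 ± 0.26), and Il33, an alarmin (-0.90 ± 0.10), also fell. In all, 16 of 22 tested cytokine genes rose and 4 fell, with a median of 1.08. Among all tested genes 22.7% were called higher and 21.4% lower.

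The enzymes by which activated macrophages make nitric oxide and starve microbes of tryptophan rose. Nos2, the inducible nitric oxide synthase, had 1177, 1229 and 1228 CPM in IFN-gamma glia and 45.3, 75.7 and 62.2 CPM in LPS-bryostatin glia (4.31 ± 0.16, adjusted p = 3.2e-11). Acod1, which makes itaconate (1.76 ± 0.07), Slc7a1, the arginine importer (1.46 ± 0.13), and Arg2, the mitochondrial arginase (1.39 ± 0.30), rose, while Arg1, the cytosolic arginase of alternative activation, fell, with 29.3, 22.4 and 31.6 CPM in IFN-gamma glia and 51, 45.1 and 41.4 CPM in LPS-bryostatin glia (-0.72 ± 0.18, adjusted p = 0.0052). Odc1, the first enzyme of polyamine synthesis, fell slightly (-0.31 ± 0.07), and of the 14 genes of this list 8 rose and 2 fell, with a median of 0.61. Ido1, the enzyme that opens the tryptophan ring, had 15, 12.3 and 17.9 CPM in IFN-gamma glia and 0.672, 0.351 and 0.576 CPM in LPS-bryostatin glia (4.80 ± 0.24, adjusted p = 8.4e-11). Its paralog Ido2 (4.91 ± 0.26) and Wars, the tryptophanyl-tRNA synthetase (2.48 ± 0.07), rose as well. Kynu, an enzyme further down the kynurenine path, had 78 counts in IFN-gamma glia and 0 in LPS-bryostatin glia. That is at least 25.8-fold higher at a floor of 3 counts over the group. The tryptophan list had 4 of 6 tested genes higher and none lower, with Tdo2 (-1.33 ± 0.68) and Afmid (0.11 ± 0.30) not called.

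Both stimulating and inhibiting surface molecules that meet T cells rose. Cd86, a co-stimulator of CD28, had 118, 105 and 134 CPM in IFN-gamma glia and 17.8, 22.8 and 19.8 CPM in LPS-bryostatin glia (2.56 ± 0.12, adjusted p = 3.2e-11). Cd274, encoding the checkpoint ligand PD-L1, had 1094, 920.0 and 981 CPM in IFN-gamma glia and 128, 179 and 162 CPM in LPS-bryostatin glia (2.68 ± 0.13, adjusted p = 1.1e-10). Cd40 (2.49 ± 0.10) and Havcr2, encoding TIM-3 (2.70 ± 0.14), rose too, and Cd48, a ligand of 2B4, fell (-1.08 ± 0.15). Of 18 tested genes 14 were higher and 1 lower, with a median of 1.76.

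In the list of homeostatic genes, those of resting microglia, 9 of 15 tested genes fell and 2 rose, beside 21.4% of all tested genes called lower and 22.7% called higher, with a median of -0.27. Without IFN-gamma glia replicate 1, 6 fell. Tmem119, a marker of resident microglia, had 7.61, 5.84 and 6.35 CPM in IFN-gamma glia and 15.6, 17 and 13.4 CPM in LPS-bryostatin glia (-1.22 ± 0.14, adjusted p = 2.3e-06). Cx3cr1, the fractalkine receptor, had 9.18, 7.37 and 9.07 CPM in IFN-gamma glia and 22.6, 17.1 and 19.4 CPM in LPS-bryostatin glia (-1.21 ± 0.12, adjusted p = 3.5e-07), and Fcrls (-1.21 ± 0.13) and Golm1 (-0.71 ± 0.10) fell as well. Mertk, a receptor for the uptake of apoptotic cells, rose (2.15 ± 0.09, adjusted p = 1.2e-11), as did the purine receptor gene P2ry13 (1.48 ± 0.25), while Trem2 (0.09 ± 0.19) was not called. Among 16 core genes of microglia and macrophages, Cd14, the LPS co-receptor (0.94 ± 0.13), the Fc receptor gene Fcgr3 (0.60 ± 0.10) and 2 others rose. The integrin gene Itgam (-1.24 ± 0.12), Adgre1, encoding F4/80 (-1.15 ± 0.09), Fcgr1 (-0.61 ± 0.09) and Aif1, encoding IBA1 (-0.45 ± 0.11), were among the 7 that fell, and the median was -0.23. On library totals 2 rose and 11 fell. Only 4 fell without IFN-gamma glia replicate 1 or 2, or without LPS-bryostatin glia replicate 1. Over the alternatives other than library totals, 4 to 9 fell. The summed microglial markers given above were lower in IFN-gamma glia, and their part in these results was not tested.

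Genes of disease-associated microglia divided. Spp1, encoding osteopontin, had 301, 299.9 and 348 CPM in IFN-gamma glia and 1367, 1198 and 1437 CPM in LPS-bryostatin glia (-2.08 ± 0.10, adjusted p = 3.3e-11). Igf1, a growth factor (-1.67 ± 0.19), Lpl, lipoprotein lipase (-1.66 ± 0.10), and Ank, a phosphate and nucleotide exporter (-0.93 ± 0.06), fell. Lgals3, encoding galectin 3 (2.29 ± 0.11), Itgax, encoding CD11c (2.21 ± 0.38), Cst7, a cysteine protease inhibitor (1.98 ± 0.15), and Gpnmb (1.73 ± 0.11) rose. Of the list, 8 of 17 tested genes rose and 6 fell, with a median of 0.14. Markers of alternative activation were likewise divided, with 4 of 10 higher and 3 lower. Both counts stand beside 22.7% of all tested genes called higher and 21.4% called lower. Mrc1, the mannose receptor, had 0.0604, 0.567 and 0.907 CPM in IFN-gamma glia and 4.29, 6.42 and 4.97 CPM in LPS-bryostatin glia (-3.36 ± 0.38, adjusted p = 2.0e-06), and the scavenger receptor gene Stab1 fell by less (-0.46 ± 0.10). Ccl22 and Ccl17 (1.66 ± 0.47), counted in that list, rose with Pparg (1.56 ± 0.43) and Klf4 (1.22 ± 0.15), so that genes often read together as alternative markers went both ways.

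Among innate sensors, Tlr2, the receptor for bacterial lipoproteins, had 570.2, 623 and 683 CPM in IFN-gamma glia and 130.3, 150.1 and 153 CPM in LPS-bryostatin glia (2.12 ± 0.10, adjusted p = 2.5e-11). Tlr9, a sensor of DNA (1.73 ± 0.24), and Tlr3, a sensor of double-stranded RNA (0.67 ± 0.10), rose too, whereas Tlr1 (-1.51 ± 0.16), the RNA sensors Tlr7 (-1.28 ± 0.10) and Tlr8 (-0.85 ± 0.20), and the inhibitory Fc receptor gene Fcgr2b (-1.54 ± 0.08) fell. The list had 8 of 17 genes higher and 7 lower, with a median of 0.14. In the complement list 7 of 18 rose and 5 fell, with a median of 0.32. Of all tested genes 22.7% were called higher and 21.4% lower, so falls in the complement list were near the general share. The proteases of the classical pathway C1s1 (2.49 ± 0.07) and C1ra (1.64 ± 0.08), their inhibitor Serping1 (2.41 ± 0.09) and C2 (1.40 ± 0.17) rose, and so did C3 (0.86 ± 0.09, adjusted p = 6.3e-07), which had 3738, 4290.1 and 3787 CPM in IFN-gamma glia and 1949, 2173 and 2386 CPM in LPS-bryostatin glia. C1ra and C1s1 have near copies beside them, and reads may be split between the copies. Properdin (Cfp, -1.20 ± 0.12) and the receptors C5ar1 (-1.01 ± 0.09) and C3ar1 (-0.83 ± 0.07) fell.

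In the list of NF-kB subunit and feedback genes 10 of 15 were called higher and none lower, with a median of 0.46. Among all tested genes 22.7% were called higher. The 5 not called included Nfkb1 (0.14), Tnip1 (0.19) and Nfkbiz (0.12). Nfkbib (1.59 ± 0.10) and Nfkbie (1.33 ± 0.11) encode inhibitors that hold NF-kB in the cytoplasm, Tnfaip3 encodes the ubiquitin editor A20 (1.56 ± 0.12), and Birc3 a ubiquitin ligase of the same path (0.76 ± 0.12). On library totals 7 were higher and 1 lower. Genes of inflammasomes and cell death rose in 16 of 22 cases, with a median of 0.86, and 16 rose on library totals. They included the adaptor gene Pycard (1.57 ± 0.19), Mlkl, the executor of necroptosis (1.55 ± 0.08), and Bbc3, encoding the pro-apoptotic PUMA (1.33 ± 0.10).

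Astrocyte genes fell more often than they rose. In the astrocyte identity list 16 of 25 tested genes were lower and 4 higher, with a median of -0.56, against 21.4% lower among all genes. Aqp4, the water channel of astrocyte endfeet, had 268, 241 and 232 CPM in IFN-gamma glia and 715, 849 and 829 CPM in LPS-bryostatin glia (-1.69 ± 0.10, adjusted p = 5.1e-10). Glul, glutamine synthetase, had 218, 196 and 216 CPM in IFN-gamma glia and 656, 566 and 624 CPM in LPS-bryostatin glia (-1.55 ± 0.07, adjusted p = 5.1e-11). Gfap, the intermediate filament used as the general astrocyte marker, had 2405, 2501 and 2546 CPM in IFN-gamma glia and 4364, 4179 and 3954 CPM in LPS-bryostatin glia (-0.75 ± 0.08, adjusted p = 1.3e-06). In these 3 genes each library with IFN-gamma lay below each library without it. The connexin gene Gjb6 (-1.62 ± 0.45) and the zinc transporter gene Slc39a12 (-1.51 ± 0.11) fell as well, while Gja1, the main astrocyte connexin, was not called (-0.16 ± 0.09), though it was called lower on library totals (adjusted p = 0.0010). Among the members that rose were the glutamate transporter gene Slc1a2 (0.72 ± 0.12) and tissue factor, F3 (0.70 ± 0.07). On library totals 21 were lower and 2 higher. The summed astrocyte markers above were lower in IFN-gamma glia, and their part in these results was not tested.

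Reactive astrocyte genes were split evenly, with 10 of 26 higher and 10 lower, beside 22.7% and 21.4% of all tested genes. Ptgs2, the inducible cyclooxygenase (2.02 ± 0.22), Sphk1, sphingosine kinase (1.73 ± 0.14), Srgn, a proteoglycan core protein (1.35 ± 0.10), and Ptx3, a long pentraxin (1.17 ± 0.08), rose. Aspg (-2.91 ± 0.20), Tm4sf1 (-1.42 ± 0.08), the transglutaminase gene Tgm1 (-1.40 ± 0.10) and the heat shock gene Hspb1 (-1.18 ± 0.14) fell. Lcn2, an acute phase carrier of siderophores that LPS induces strongly in astrocytes, rose slightly (0.35 ± 0.10, adjusted p = 0.01), at 4584, 5329 and 6316 CPM in IFN-gamma glia and 4164, 4122 and 4427 CPM in LPS-bryostatin glia. That call was lost on library totals (adjusted p = 0.36) and without IFN-gamma glia replicate 3 (0.071).

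Oligodendrocyte-lineage genes had the lowest median of the lists, at -1.06, with 12 of 16 tested genes lower and 1 higher. Cldn11, a tight junction protein of myelin, had 2.66, 2.66 and 2.33 CPM in IFN-gamma glia and 17.9, 17.9 and 18.7 CPM in LPS-bryostatin glia (-2.83 ± 0.14, adjusted p = 6.8e-11). Gpr17, a receptor of committed precursors (-2.40 ± 0.37), and Ugt8a, which makes the galactolipids of myelin (-1.93 ± 0.24), fell. In the fit with all 15 libraries of the experiment 6 were called lower, and Gpr17 and Ugt8a were not (adjusted p = 0.071 and 0.13). Summed markers of the lineage were 251 to 271 CPM in IFN-gamma glia and 505 to 529 CPM in LPS-bryostatin glia, with Mog at 0 in IFN-gamma glia, and their part in these results was not tested.

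Lists of other cell types are given beside the 22.7% of all tested genes called higher and 21.4% called lower. Of 8 tested endothelial genes 3 rose, among them Pecam1 (1.87 ± 0.18) and Flt1 (1.19 ± 0.22), with summed markers of 32.1 to 35.4 CPM in IFN-gamma glia and 24.8 to 31.6 CPM in LPS-bryostatin glia and Tie1 at 0 in both. Of 10 mural and fibroblast genes 3 fell, among them the growth factor receptor gene Pdgfrb (-0.45 ± 0.10), and 1 rose, with summed markers of 1420 to 1640 CPM in IFN-gamma glia and 1560 to 2120 CPM in LPS-bryostatin glia. Of 7 ependymal genes 1 rose, Cfap43, and 3 fell, among them Rsph1 (-1.20 ± 0.12) and Foxj1 (-0.70 ± 0.07). Summed ependymal markers were 203 to 224 CPM in IFN-gamma glia and 350 to 372 CPM in LPS-bryostatin glia. Neuronal markers summed to 173 to 202 CPM in IFN-gamma glia and 114 to 128 CPM in LPS-bryostatin glia, and of 9 tested genes 3 rose, among them Stmn2 (0.69 ± 0.08), and 3 fell. The part of these markers in the other results was not tested.

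**Figure D4:**
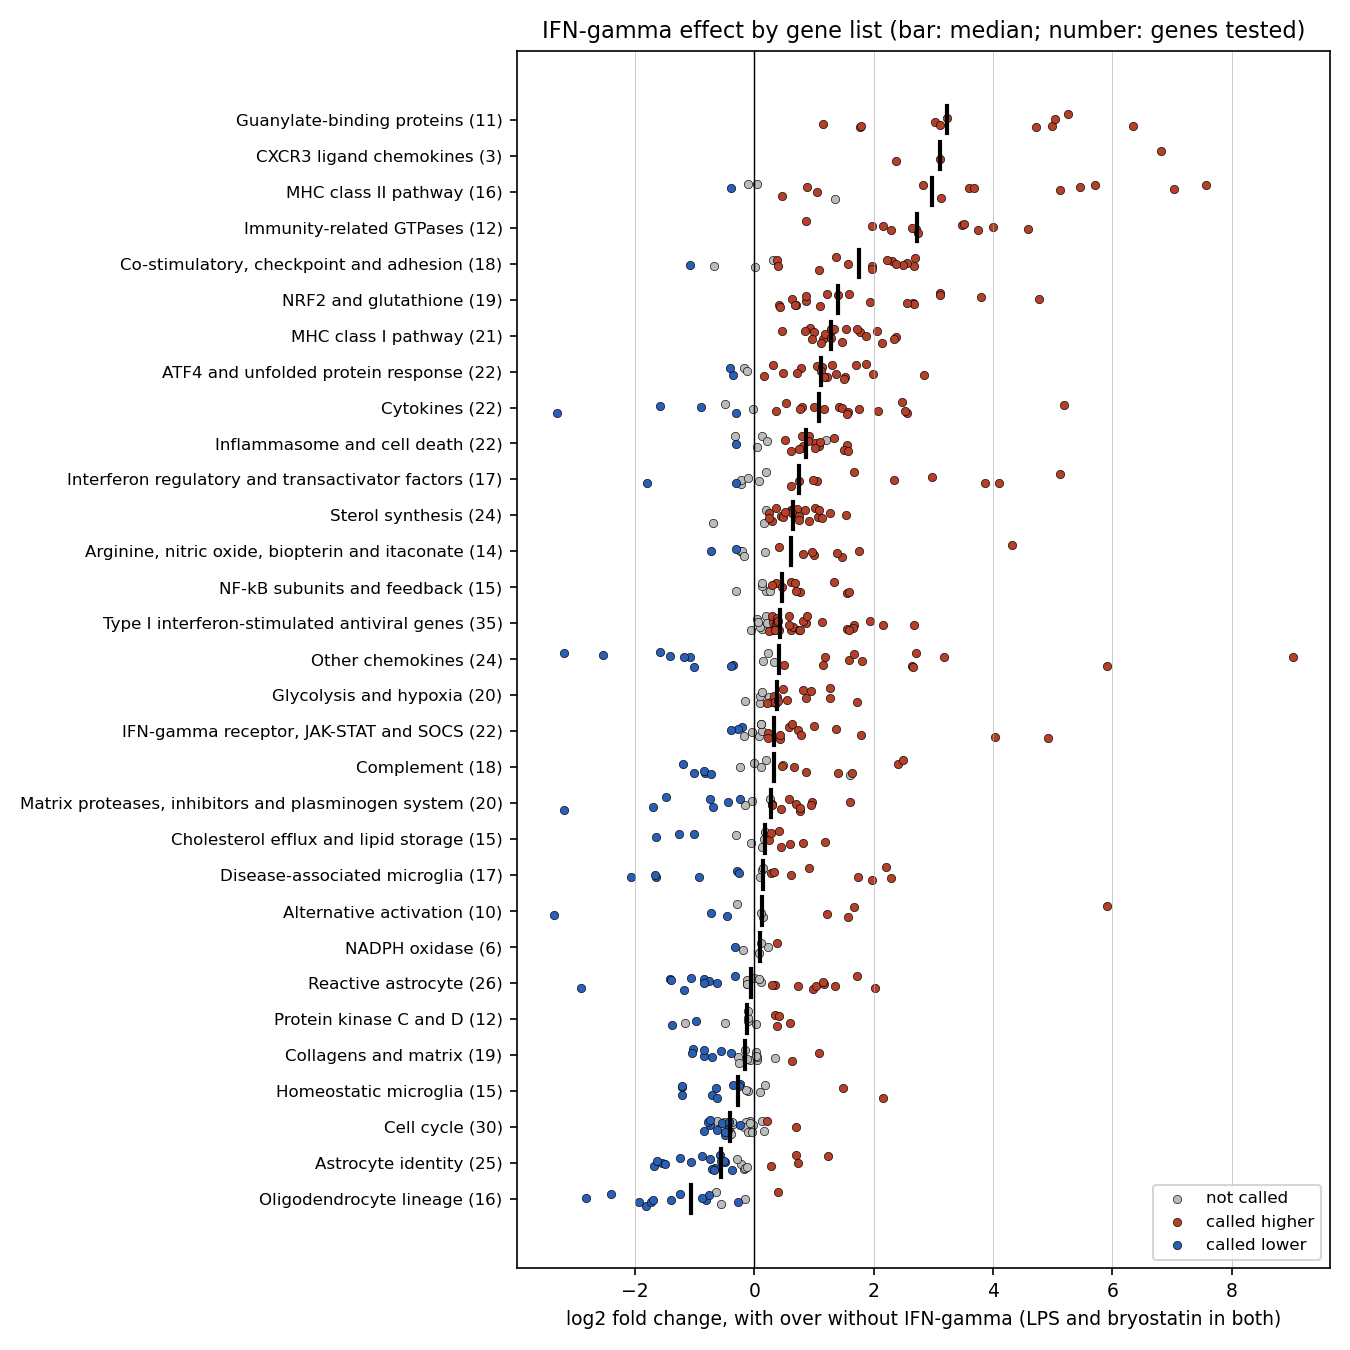
Log2 fold change of IFN-gamma glia over LPS-bryostatin glia (x axis) for the tested members of each gene list (rows, with the number tested), 1 point per gene, red called higher, blue called lower, grey not called, and a black bar at the list's median. Of the lists drawn, those with the highest medians are the guanylate-binding proteins, at 3.22, the CXCR3 ligands, at 3.11, and MHC class II, at 2.97, and the lowest is the oligodendrocyte lineage, at -1.06. The tryptophan and kynurenine enzymes, with a median of 3.64 over 6 tested genes, are not drawn.

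Genes of antioxidant defence and of the amino acid stress response rose beside the immune genes. All 19 genes of the NRF2 and glutathione list were called higher, with a median of 1.4, and 18 were on library totals. Hmox1, heme oxygenase 1, had 3756, 3574 and 4391 CPM in IFN-gamma glia and 148, 139 and 141 CPM in LPS-bryostatin glia (4.78 ± 0.10, adjusted p = 8.0e-15). Slc7a11, the cystine importer that feeds glutathione synthesis, had 493, 433 and 435 CPM in IFN-gamma glia and 27.6, 34.7 and 36.1 CPM in LPS-bryostatin glia (3.79 ± 0.19, adjusted p = 3.3e-09). Srxn1, sulfiredoxin (3.12 ± 0.09), and Gclm, a subunit of the enzyme that starts glutathione synthesis (3.11 ± 0.08), rose by similar amounts. In the list of ATF4 targets and the unfolded protein response, 18 of 22 genes rose and 2 fell, with a median of 1.12. The pseudokinase gene Trib3 (2.84 ± 0.14), asparagine synthetase (Asns, 1.99 ± 0.11), Chac1, which degrades glutathione (1.86 ± 0.15), and Ddit3, encoding CHOP (1.71 ± 0.09), led. The 2 that fell were Herpud1, of endoplasmic reticulum-associated degradation (-0.41 ± 0.07), and Nupr1.

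Sterol synthesis genes rose in 21 of 24 cases, with none lower and a median of 0.64. Mvd, of the mevalonate path (1.53 ± 0.09), Insig1, the sterol-sensing brake on that path (1.27 ± 0.07), Lss, lanosterol synthase (1.13 ± 0.07), and Fdps, which makes farnesyl diphosphate (1.08 ± 0.17), were the steepest, and on library totals 17 were higher and 1 lower. Among genes of cholesterol efflux and lipid storage, Nceh1, a cholesteryl ester hydrolase (1.19 ± 0.07), and the exporter gene Abcg1 (0.81 ± 0.15) rose. Lpl, Ch25h, which makes 25-hydroxycholesterol (-1.27 ± 0.08), and Nr1h3, encoding the receptor LXR alpha (-1.01 ± 0.14), fell. Glycolysis and hypoxia genes rose in 15 of 20 cases with a median of 0.37, led by the glucose transporter gene Slc2a1 (1.72 ± 0.09), hexokinase 2 (Hk2, 1.27 ± 0.07) and Vegfa (1.26 ± 0.09), and 8 were higher on library totals.

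In the cell cycle list 11 of 30 genes were lower and 2 higher, beside 21.4% of all tested genes called lower and 22.7% called higher, with a median of -0.41. The count of lower genes was 7 without LPS-bryostatin glia replicate 1 or 2 and 16 without LPS-bryostatin glia replicate 3. Kif11, a motor of the mitotic spindle (-0.84 ± 0.17), Tk1, thymidine kinase (-0.78 ± 0.19), and cyclin A2 (Ccna2, -0.75 ± 0.20) were the steepest, and cyclin E1 (Ccne1, 0.69 ± 0.17) rose. On library totals 24 were lower. Matrix proteases and the plasminogen system were divided, with 10 of 20 higher and 7 lower. Mmp10 (1.59 ± 0.23), Adamts4 (0.96 ± 0.13), Adamts9 (0.95 ± 0.13) and Mmp12 (0.77 ± 0.11) rose. The collagenase gene Mmp8 (-3.18 ± 0.53), the gelatinase gene Mmp9 (-1.70 ± 0.18), the inhibitor gene Timp3 (-1.49 ± 0.20) and Mmp13 (-0.75 ± 0.12) fell. Of 19 collagen and matrix genes 7 fell, led by Col11a1 (-1.04 ± 0.12) and Col6a1 (-1.03 ± 0.10), and 2 rose, among them Vcan, encoding versican (1.08 ± 0.20). Protein kinase C and D genes, whose products include the targets of bryostatin, had a median of -0.12. Of 12 genes 4 rose, led by Prkcd (0.60 ± 0.07), and 2 fell, led by Prkcb (-1.38 ± 0.18), beside 44.1% of all tested genes called in either direction, while on library totals 1 rose and 6 fell.

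The steepest single changes included genes outside these lists. Ramp3, a receptor activity-modifying protein that alters the calcitonin receptor-like receptor, had 20.2, 22.2 and 28.3 CPM in IFN-gamma glia and 0.0517, 0 and 0 CPM in LPS-bryostatin glia, or 1164 counts against 1, a ratio of 1160 (95% counting interval 207 to 45700). Cytip, which regulates integrin adhesion of leukocytes, had 25.8, 29.9 and 35.7 CPM in IFN-gamma glia and 0.155, 0.1 and 0.157 CPM in LPS-bryostatin glia (7.73 ± 0.23, adjusted p = 1.2e-13). Ubd, the ubiquitin-like modifier FAT10, had 233, 261 and 330.1 CPM in IFN-gamma glia and 1.09, 2.01 and 2.57 CPM in LPS-bryostatin glia (7.18 ± 0.21, adjusted p = 1.9e-12). Calhm6, whose promoter is printed above, had 199, 236 and 265 CPM in IFN-gamma glia and 2.64, 3.16 and 2.67 CPM in LPS-bryostatin glia (6.36 ± 0.14, adjusted p = 9.8e-15). These 4 genes were near the floor without IFN-gamma or a few CPM above it, and high in each library with it.

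The steepest falls included receptors and signalling genes. Siglece, an inhibitory lectin of myeloid cells that binds sialic acid, had 5.31, 4.14 and 3.95 CPM in IFN-gamma glia and 53.9, 50.9 and 49.8 CPM in LPS-bryostatin glia (-3.52 ± 0.12, adjusted p = 5.2e-13). Prex2, an exchange factor for Rac, had 5.86, 5.27 and 3.37 CPM in IFN-gamma glia and 49.3, 58.7 and 64 CPM in LPS-bryostatin glia (-3.56 ± 0.26, adjusted p = 1.7e-07). Sucnr1, the receptor for succinate, had 0.966, 1.87 and 2.07 CPM in IFN-gamma glia and 14.7, 18.7 and 15.1 CPM in LPS-bryostatin glia (-3.31 ± 0.22, adjusted p = 2.4e-09). Pf4, a chemokine better known from platelets and also made by macrophages, fell (-3.18 ± 0.25 on the log2 scale), as did the urea transporter gene Slc14a1 (-3.18 ± 0.14), Gna14, a G protein alpha subunit (-3.38 ± 0.25), and Acat3 (-3.74 ± 0.22). None of these groups of 3 libraries overlapped, which the rule that chose the genes required.

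The IFN-gamma effect was set against the same effect without bryostatin, and a small set of genes differed. The difference between the IFN-gamma effect with bryostatin and that without it, taken over 4 groups that share no library, was called for 112 of 15693 genes (0.714%), 71 of them (0.452%) with a higher log2 effect under bryostatin and 41 (0.261%) with a lower one. At an unadjusted p under 0.05 there were 1505 genes (9.59%). Of the 71, 46 were called in the same direction in both settings and 7 in opposite directions, and of the 41, 22 and 6. The count depended on the fit, with 264 genes called by DESeq2, 356 without the filter on low counts and 19 in the fit with all 15 libraries. It was 63 or 64 without IFN-gamma glia replicate 1 or 2, and 42, 62 and 52 without LPS-bryostatin glia replicates 1, 2 and 3. It was 66 without LPS + IFN-gamma glia replicate 3, and 33, 34 and 38 without LPS glia replicates 1, 2 and 3. A gene not called here is therefore not shown to respond alike. Of the 31 genes named in this text whose difference was called, 14 kept the call in all 12 fits that leave out 1 library, and 10 of these also in the fit with all 15 libraries, namely Ccl22, H2-Aa, Cd74, Ubd, Calhm6, Gbp11, C1s1, Egr1, Hspa1a and Hspa1b.

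Genes of the IFN-gamma programme itself were among those with a larger effect under bryostatin. Ccl22 rose by 5.91 ± 0.20 with bryostatin and by 2.39 ± 0.15 without it, a difference of 3.53 ± 0.28 (adjusted p = 1.1e-05). Its levels were 44.4, 50.8 and 54.7 CPM in IFN-gamma glia and 0.879, 0.953 and 0.628 CPM in LPS-bryostatin glia, beside 39.2, 32.4 and 33.9 CPM in LPS + IFN-gamma glia and 5.61, 5.71 and 8.88 CPM in LPS glia. Each library without IFN-gamma was lower under bryostatin than in LPS glia, and the mean with IFN-gamma was higher. H2-Aa rose by 7.57 ± 0.20 with bryostatin and 5.26 ± 0.15 without it (difference 2.31 ± 0.31, adjusted p = 0.0022), with 86.7, 93.3 and 98 CPM in IFN-gamma glia and 0.259, 0.652 and 0.524 CPM in LPS-bryostatin glia, beside 182, 148 and 147 CPM in LPS + IFN-gamma glia and 5.12, 3.15 and 4.23 CPM in LPS glia. Here the level with IFN-gamma was itself lower under bryostatin, and the larger ratio came with a still lower level without IFN-gamma. Cd74 had the same order of levels, with a difference of 1.23 ± 0.16 (adjusted p = 0.0021), at 444 ± 39.7 CPM in IFN-gamma glia and 10.1 ± 1.09 CPM in LPS-bryostatin glia, beside 681 ± 111 CPM in LPS + IFN-gamma glia and 36.2 ± 2.79 CPM in LPS glia (mean ± SD, n = 3 each).

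Ubd had a difference of 1.99 ± 0.29 (adjusted p = 0.0054), Il12rb1 of 1.61 ± 0.34 (adjusted p = 0.04) and Cxcl9 of 1.07 ± 0.21 (adjusted p = 0.034). The calls for Il12rb1 and Cxcl9 held in 3 of the 12 fits that leave out 1 library. Among regulators and effectors the differences were 0.72 ± 0.13 for Socs1 (adjusted p = 0.021), 0.57 ± 0.12 for Irf1 (adjusted p = 0.034) and 0.67 ± 0.12 for Hmox1 (adjusted p = 0.017), and these held in 3, 2 and 9 such fits. Guanylate-binding protein genes were represented by Gbp10 (1.46 ± 0.19), Gbp11 (1.51 ± 0.23), Gbp2 (0.70 ± 0.12), Gbp5 (0.80 ± 0.12) and Gbp6 (1.03 ± 0.13), 5 of the 11 tested, each held in 11 or 12 of these fits. In the fit with all 15 libraries Gbp11 alone of these 5 was called. Adjusted p there was 0.85 for Gbp2, 0.82 for Gbp5, 0.26 for Gbp6 and 0.15 for Gbp10. Il12rb1, Cxcl9, Socs1, Irf1 and Hmox1 were not called in that fit either. Ciita, by contrast, had a difference of 0.32 ± 0.23 that was not called (adjusted p = 0.77). In 67 of the 71 genes the mean level without IFN-gamma was lower under bryostatin than in LPS glia, and in 42 the level with IFN-gamma was higher under bryostatin than in LPS + IFN-gamma glia, against 53% and 50.8% of all genes tested. A positive difference requires at least 1 of these, so these shares are a description only.

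For some genes IFN-gamma had an effect in LPS glia that was not called, or was reversed, under bryostatin. Cxcl5, a neutrophil chemokine, fell without bryostatin (-1.63 ± 0.25) and had a value of 0.32 ± 0.25 with it, which was not called except without the filter on low counts (difference 1.95 ± 0.35, adjusted p = 0.034). Its levels were 76.1, 64 and 91.1 CPM in IFN-gamma glia and 43.6, 83.3 and 58.2 CPM in LPS-bryostatin glia, which overlap, beside 45.8, 71.3 and 47.5 CPM in LPS + IFN-gamma glia and 147, 208 and 154 CPM in LPS glia, which do not. Car8, a carbonic anhydrase-related protein without enzyme activity, fell without bryostatin (-2.85 ± 0.23) and had a value of -0.61 ± 0.31 with it, not called (difference 2.23 ± 0.40, adjusted p = 0.018). Mean levels of Car8 were 0.752 CPM in IFN-gamma glia and 1.15 CPM in LPS-bryostatin glia. They were 1.14 CPM in LPS + IFN-gamma glia and 8.28 CPM in LPS glia. Car8 was thus already low in LPS-bryostatin glia, without IFN-gamma. The difference was called in 3 of the 12 fits that leave out 1 library for Cxcl5 and in 9 for Car8. In the fit with all 15 libraries it was called for neither gene (adjusted p = 0.1 for Cxcl5 and 0.61 for Car8). The value of Car8 with bryostatin was called lower on library totals (adjusted p = 0.026) and without IFN-gamma glia replicate 1 (adjusted p = 0.049).

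The genes with the most negative called differences included Egr1 and Egr2 and a pair of heat shock genes. Egr1, an immediate early transcription factor gene that growth factors and protein kinase C induce, had 19, 17.9 and 18.2 CPM in IFN-gamma glia and 39.4, 45 and 30.9 CPM in LPS-bryostatin glia, beside 30.6, 45.9 and 32.2 CPM in LPS + IFN-gamma glia and 22.9, 25 and 19.7 CPM in LPS glia. It fell with bryostatin (-1.07 ± 0.16, adjusted p = 5.1e-05) and rose without it (0.68 ± 0.15, adjusted p = 0.0022), a difference of -1.75 ± 0.22 (adjusted p = 0.0018). Egr2, of the same family, fell with bryostatin (-2.03 ± 0.21) and had a value of -0.52 ± 0.22 without it, not called (difference -1.51 ± 0.30, adjusted p = 0.032). The 70-kDa heat shock genes Hspa1a and Hspa1b, near-identical copies whose reads cannot be split with certainty, rose by 0.53 ± 0.13 and 1.08 ± 0.12 with bryostatin and by 2.07 ± 0.12 and 2.45 ± 0.11 without it, with differences of -1.54 ± 0.18 and -1.36 ± 0.16 (adjusted p = 6.6e-04 for both), while the rise of Hspa1a with bryostatin was not called on library totals (adjusted p = 0.082). Tacr1, the receptor for substance P, and Ifitm6 fell with bryostatin (-1.02 ± 0.20 and -1.01 ± 0.17) and were not called without it (0.42 ± 0.19 and 0.26 ± 0.17), with differences of -1.44 ± 0.28 (adjusted p = 0.026) and -1.27 ± 0.25 (adjusted p = 0.026). Egr1 and both heat shock genes kept the call in all 12 fits that leave out 1 library, Egr2 in 4, and Tacr1 and Ifitm6 in 6 each.

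**Figure D5:**
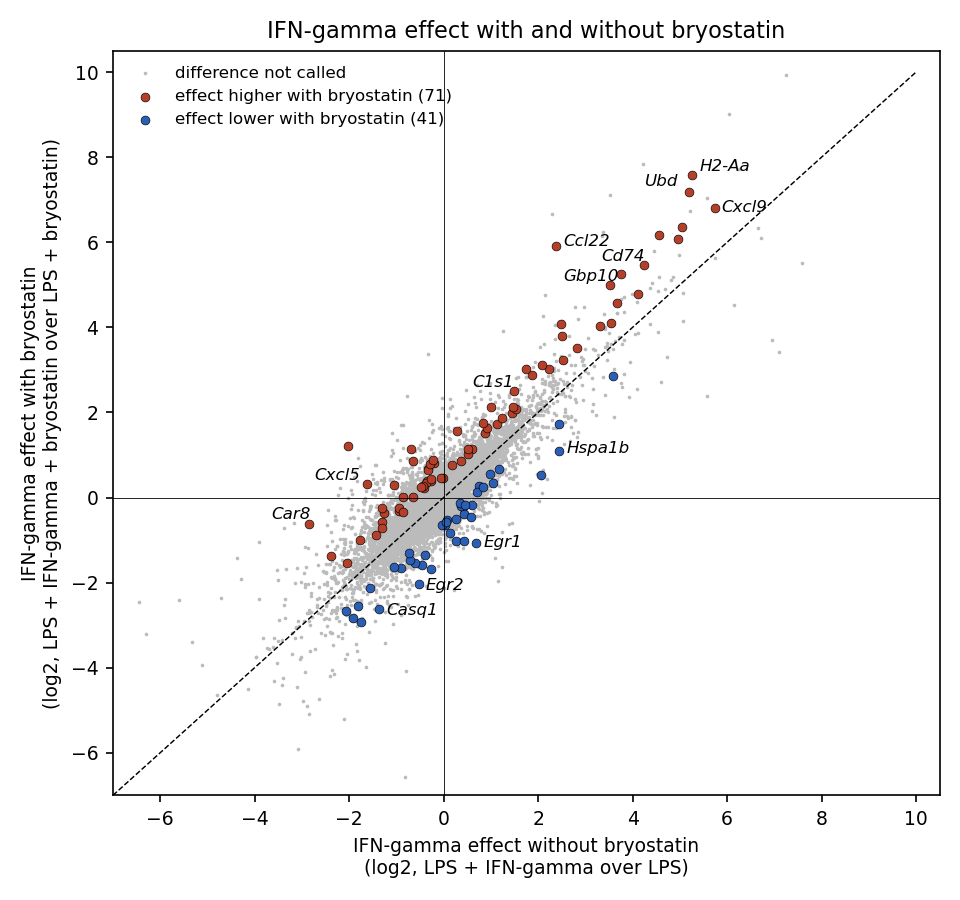
Log2 effect of IFN-gamma with bryostatin, IFN-gamma glia over LPS-bryostatin glia (y axis), against that without it, LPS + IFN-gamma glia over LPS glia (x axis), 1 point per tested gene, with a dashed line where they are equal. The 71 genes with a called positive difference (red) lie above the line, among them Ccl22, at 5.91 with and 2.39 without bryostatin, and the 41 with a negative one (blue) below it.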

How the data were processed

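RNA was sequenced from 27 libraries of mixed glia in 2 experiments, of which 12 libraries of experiment 1 were fitted here, in 4 groups of 3 taken from the labels. Per the labels' protocols, poly(A) RNA went into libraries without strand information, so reads of overlapping and antisense genes cannot be told apart. Per the submitters' processing notes, the tools were fastp, STAR and featureCounts and the build was mm10; their versions are not given in the sources used here. As deposited by the authors, the main table holds raw counts per gene for 54532 annotated genes (unit: counts, whole numbers without normalization). The deposited FPKM values were not used.

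The count test was edgeR 4.0.16 in R 4.3.3, with filterByExpr per group, TMM factors, a robust quasi-likelihood fit and a two-sided F test, and p-values adjusted by the Benjamini-Hochberg method over 15693 genes. DESeq2 1.42.0 was an alternative. Untreated libraries were left out of the main fit, because 1 of that group was earlier seen to stand apart from its label, and entered as an alternative. The other alternatives were DESeq2 size factors, no filter, the 6 compared libraries only, a replicate block, leaving out each library, and library totals without TMM, which was added after the TMM factors were seen to differ between the groups. The fit was also run on simulated counts in which 200 genes changed and the rest were alike in all groups. That run does not test the scaling between groups.

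The comparison, the gene lists and the genes to be named were chosen with earlier results of these data known, so a list's direction is not independent evidence, and lists are described by counts and medians without a set test. Genes were named by a rule: the 10 largest and 10 smallest changes among called protein-coding genes with at least 5 CPM in the higher group and no overlap, 32 fixed genes, up to 4 called members of each list in each direction, any member of lists of 15 genes or fewer, and the 6 largest and 6 smallest called differences. Some genes that this rule names are not reported here. Counting intervals and floors (3 counts) cover counting error only. Library pairs of a group differed by more than sampling noise (chi-square per degree of freedom 2.8 to 23.38), so none was counted as a repeat.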

Additional observations from a re-analysis of the deposited data

Results flagged for a closer look

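Between the IFN-gamma effect with bryostatin (IFN-gamma glia over LPS-bryostatin glia) and that without it (LPS + IFN-gamma glia over LPS glia), 112 genes differed in edgeR's test of the difference itself. Beside the genes described above, C1s1 and C1ra, proteases of the classical complement pathway, had differences of 0.99 and 0.72, called in all 12 fits that leave out 1 library. In the fit with all 15 libraries C1s1 was called and C1ra was not (adjusted p = 0.073). The immunity-related GTPase gene Tgtp1 differed by 0.90 and the cystine importer gene Slc7a11 by 1.28. Tlr2, the lipoprotein receptor, differed by 0.65, Glul, glutamine synthetase, by 0.50, Gpnmb by -0.71 and lipoprotein lipase, Lpl, by -0.76. The call was kept in 8 of the 12 fits that leave out 1 library for Tgtp1, in 7 for Lpl, in 2 for Slc7a11 and in 3 each for Tlr2, Glul and Gpnmb. It was kept for none of these genes in the fit with all 15 libraries. Calhm6 differed by 1.31, with levels of 233 ± 32.9 CPM in IFN-gamma glia and 2.82 ± 0.292 CPM in LPS-bryostatin glia, beside 298 ± 31.5 CPM in LPS + IFN-gamma glia and 8.98 ± 0.493 CPM in LPS glia (mean ± SD, n = 3 each).

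Among the genes described above, the called differences on the log2 scale were 3.53 for Ccl22, 2.31 for H2-Aa, 2.23 for Car8, 1.99 for Ubd, 1.95 for Cxcl5 and 1.61 for Il12rb1. Those of guanylate-binding protein genes were 1.51 for Gbp11, 1.46 for Gbp10, 1.03 for Gbp6, 0.80 for Gbp5 and 0.70 for Gbp2. Cd74 had 1.23, Cxcl9 1.07, Socs1 0.72, Hmox1 0.67 and Irf1 0.57. Negative differences were -1.75 for Egr1, -1.54 for Hspa1a, -1.51 for Egr2, -1.44 for Tacr1, -1.36 for Hspa1b and -1.27 for Ifitm6. No explanation of these differences was tested.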

How the results depend on the processing

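The count of genes changed by IFN-gamma, 6919, stayed within 1.5 times under every alternative run, at 6912 with DESeq2 size factors, 6968 in DESeq2, 7098 without the filter, 5923 with all 15 libraries, 6657 with the 6 compared libraries only and 8705 on library totals, and 6034 to 6471 when a library of either group was left out. On library totals 2087 genes were higher and 6618 lower, 1560 of these over 2-fold, and the value of Ifngr2 was -0.011. The count of genes whose effects differed, 112, was 264 in DESeq2 (170 positive, 94 negative), 356 without the filter (245 and 111), 19 with all 15 libraries (11 and 8), 110 with DESeq2 size factors, 102 on library totals, and 33 to 156 when 1 library was left out (24 to 85 positive and 8 to 71 negative). Causes of these shifts were not tested. Over the alternatives for single named genes, 2721 values of the IFN-gamma effect kept their direction and side of the threshold, 14 lost the call, 4 gained it and 1 changed sign, and 414 values of the difference kept theirs while 144 lost the call. Replicate numbers were not used as pairs in the main fit. Same-numbered libraries of IFN-gamma glia and LPS-bryostatin glia had correlations of deviations of -0.449, 0.005 and -0.378. Differently numbered ones had -0.219 to 0.498. Deviations from a mean of 3 libraries constrain each other, so these values cannot show whether libraries were paired. With the numbers as a replicate block 6752 genes were changed by IFN-gamma, and 79 differed between the effects, 22 of them negative. Depth limits genes near 3 counts, and 3 libraries a group limit what small differences can be called.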
